A study of Mus musculus with 112 samples.

Results

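The genes described here make, lengthen and desaturate fatty acids or control that pathway. They are Acly, Me1, Fasn, Elovl6, Elovl5, Fads1, Fads2, Srebf1, Mlxipl and Thrsp, 10 of the 19938 genes that the arrays measured. The members were listed by name, and each was read from the brightest probe set (probes summarized to 1 value) that carried its symbol alone, and all 10 had such a probe set. Hearts came from male mice of 6 inbred strains (129S1/SvImJ, BALB/cJ, C3H/HeJ, CBA/J, DBA/2J and C57BL/6J) and of B6C3F1/J, the hybrid of C57BL/6J and C3H/HeJ. In each strain 8 mice ate a control diet and 8 a caloric restriction (CR) diet from 8 weeks of age, and hearts were frozen at 22 weeks after a night without food. All mice had been on 84 kcal of purified food per week before the diets diverged, the food of C57BL/6J and 129S1/SvImJ mice on CR was cut once more, and BALB/cJ mice received more food in both groups. Each mouse gave 1 array, and the values are log2 signals. Precision depends on how many arrays each group has and on the spread between hearts of a group, which differed widely between genes.

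Of the 112 arrays, 111 were used, 56 control and 55 CR. DBA/2J CR replicate 7 was left out because its correlation with its group was 0.262, while no other array fell below 0.894. Cardiomyocyte markers were bright in all arrays used, with a mean log2 signal from 11.2 to 13.0. Markers of fat cells varied much more between hearts of the same group, and that variation is given below beside each result that it touches. In pieces of whole heart, fewer cells of a type and less RNA per cell cannot be told apart.

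Fatty acid synthesis starts from citrate, which ATP citrate lyase (Acly) splits into acetyl-CoA in the cytosol. Fatty acid synthase (Fasn) joins these units with NADPH, part of which malic enzyme (Me1) supplies, and Elovl6 lengthens the product. Elovl5, Fads1 and Fads2 act mainly on dietary polyunsaturated fatty acids, lengthening them or adding double bonds. Srebf1 and Mlxipl encode the transcription factors SREBP-1 and ChREBP, which respond to insulin and to sugar, and Thrsp (Spot14) is a nuclear and cytosolic protein that rises with lipogenesis. Liver and fat are the main sites of the pathway, whereas the adult heart mostly burns fatty acids that it takes up from blood.

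Fasn, Acly, Elovl6 and Thrsp varied together from heart to heart, as described below, so the 250 bases before the start site of each are shown. Sequences are from RefSeq on build GRCm38.p6, written 5′ to 3′ on the strand of the gene. Capitals mark any of 4 motifs on either strand, namely the E-box CACGTG, the CCAAT box, the sterol element TCACNCCAC and the GC box GGGCGG.
Fasn (chr11:120824548-120824797, strand minus): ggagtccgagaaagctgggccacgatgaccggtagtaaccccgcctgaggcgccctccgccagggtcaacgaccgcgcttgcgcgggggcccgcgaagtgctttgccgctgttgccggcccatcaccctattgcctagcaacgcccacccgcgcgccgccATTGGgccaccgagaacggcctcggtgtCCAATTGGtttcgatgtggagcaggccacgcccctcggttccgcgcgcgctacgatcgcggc
Acly (chr11:100528001-100528250, strand minus): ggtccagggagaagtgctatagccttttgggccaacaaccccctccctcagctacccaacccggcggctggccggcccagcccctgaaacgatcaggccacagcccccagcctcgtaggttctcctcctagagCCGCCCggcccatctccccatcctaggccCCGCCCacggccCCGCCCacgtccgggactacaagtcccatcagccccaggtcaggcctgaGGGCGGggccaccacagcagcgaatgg
Elovl6 (chr3:129532136-129532385, strand plus): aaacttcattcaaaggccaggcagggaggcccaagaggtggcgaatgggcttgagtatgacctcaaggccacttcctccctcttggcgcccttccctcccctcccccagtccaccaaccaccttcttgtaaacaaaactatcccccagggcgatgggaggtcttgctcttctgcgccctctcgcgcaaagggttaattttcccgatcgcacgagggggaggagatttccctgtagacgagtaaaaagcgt
Thrsp (chr7:97417551-97417800, strand minus): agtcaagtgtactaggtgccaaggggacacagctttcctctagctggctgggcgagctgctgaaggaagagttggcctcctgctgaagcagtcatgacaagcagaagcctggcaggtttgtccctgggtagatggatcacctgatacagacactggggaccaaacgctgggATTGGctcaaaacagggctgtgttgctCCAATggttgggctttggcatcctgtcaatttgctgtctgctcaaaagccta
The Fasn window held 3 CCAAT matches, of which 2 overlap in opposite orientation, and the Thrsp window held 2. Acly had 4 GC boxes, and the Elovl6 window had no match to any of the 4 motifs. Of the 9 members with a window in the RefSeq table (Fads1 was not matched), 6 had a CCAAT match and 5 a GC box in at least 1 window. Some members had several windows, and by window 7 of 13 held CCAAT and 6 of 13 GGGCGG. Over all 32851 windows of this length 33.8% held CCAAT and 32.7% GGGCGG, against 6.02% for CACGTG and 1.05% for TCACNCCAC. CACGTG was found in the windows of Elovl5 and Mlxipl, and TCACNCCAC in a window of Mlxipl. These matches describe the letters in the windows and were not related to the signals.

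In most hearts the 4 genes of that set were near the lower end of their range, and in a minority they were far above it. Fasn (probe set 10393970) ran from 5.65 to 12.26 over the 111 hearts, a span of 97.4-fold. Elovl6 (10495993) spanned 110-fold, Thrsp (10565609) 54.4-fold and Acly (10391146) 17.98-fold. Their pooled within-group SDs ran from 0.84 for Acly to 1.74 for Fasn, where the median gene had 0.22. For Me1 (10405753) the span was 5.69-fold, and for Fads1 (10461439) 5.48-fold. Fads2 (10465895), Elovl5 (10587284), Srebf1 (10386473) and Mlxipl (10526277) stayed between 2.94-fold and 3.42-fold.

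Hearts with high Fasn were found in every strain except 129S1/SvImJ. In 129S1/SvImJ control hearts the lowest, median and highest log2 signals of Fasn were 6.38, 6.52 and 6.75, and in CR hearts 6.54, 6.77 and 7.51. In C57BL/6J they were 6.42, 8.83 and 12.26 in control and 6.08, 6.55 and 11.53 in CR hearts, so that the control median lay well above the CR median while the ranges overlapped almost fully. In BALB/cJ the same values were 6.30, 6.60 and 11.66 against 6.13, 6.58 and 11.73. The medians of BALB/cJ were thus alike and low in both diets, with a few hearts far above them. CBA/J control hearts ran from 6.00 through 6.30 to 10.39 and CR hearts from 5.84 through 6.25 to 10.91. C3H/HeJ had 6.29, 6.79 and 10.76 in control and 6.37, 7.88 and 10.99 in CR hearts. In B6C3F1/J the CR median was also the higher, at 7.49 against 6.45, with highest hearts of 10.12 and 10.15. DBA/2J CR hearts (n = 7) had 6.01, 6.68 and 8.49 against 6.19, 6.31 and 10.40 in control hearts.

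Elovl6, the elongase that takes palmitate further, had the same shape. In 129S1/SvImJ it stayed between 4.95 and 5.80 in control and between 4.72 and 5.81 in CR hearts. In C57BL/6J its lowest, median and highest values were 5.37, 8.40 and 11.14 in control and 4.81, 5.56 and 11.50 in CR hearts. B6C3F1/J went the other way, with 5.10, 5.25 and 8.28 in control and 5.64, 6.19 and 9.18 in CR hearts. Control and CR hearts overlapped in both strains.

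Acly, which makes the acetyl-CoA, was nearly flat in most hearts and high in a few. In 129S1/SvImJ its lowest, median and highest values were 6.79, 6.97 and 7.11 in control and 6.86, 7.03 and 7.32 in CR hearts. In BALB/cJ they were 7.00, 7.09 and 8.59 in control and 7.03, 7.09 and 10.52 in CR hearts. C57BL/6J had 7.07, 7.33 and 9.10 in control and 6.87, 7.10 and 10.63 in CR hearts. The medians of both diets were close in these strains, and the highest heart of BALB/cJ and of C57BL/6J was a CR heart. In C3H/HeJ the values were 6.85, 6.99 and 8.59 in control and 6.87, 7.52 and 9.63 in CR hearts. In CBA/J they were 6.51, 6.88 and 8.38 in control and 6.46, 6.85 and 9.30 in CR hearts. The diets overlapped in every strain.

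Thrsp had the same shape in most strains. In C57BL/6J it had 6.29, 7.74 and 9.70 in control and 6.41, 6.72 and 11.05 in CR hearts. BALB/cJ had 6.58, 6.86 and 8.83 in control and 6.40, 6.98 and 10.36 in CR hearts. In 129S1/SvImJ the values were 5.92, 6.45 and 6.59 in control and 6.22, 6.48 and 6.72 in CR hearts, without a high heart in either diet. DBA/2J CR hearts stayed between 6.00 and 6.44, and replicate 6, the highest of that group in Fasn, Elovl6 and Acly, had 6.34.

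**Figure D1:**
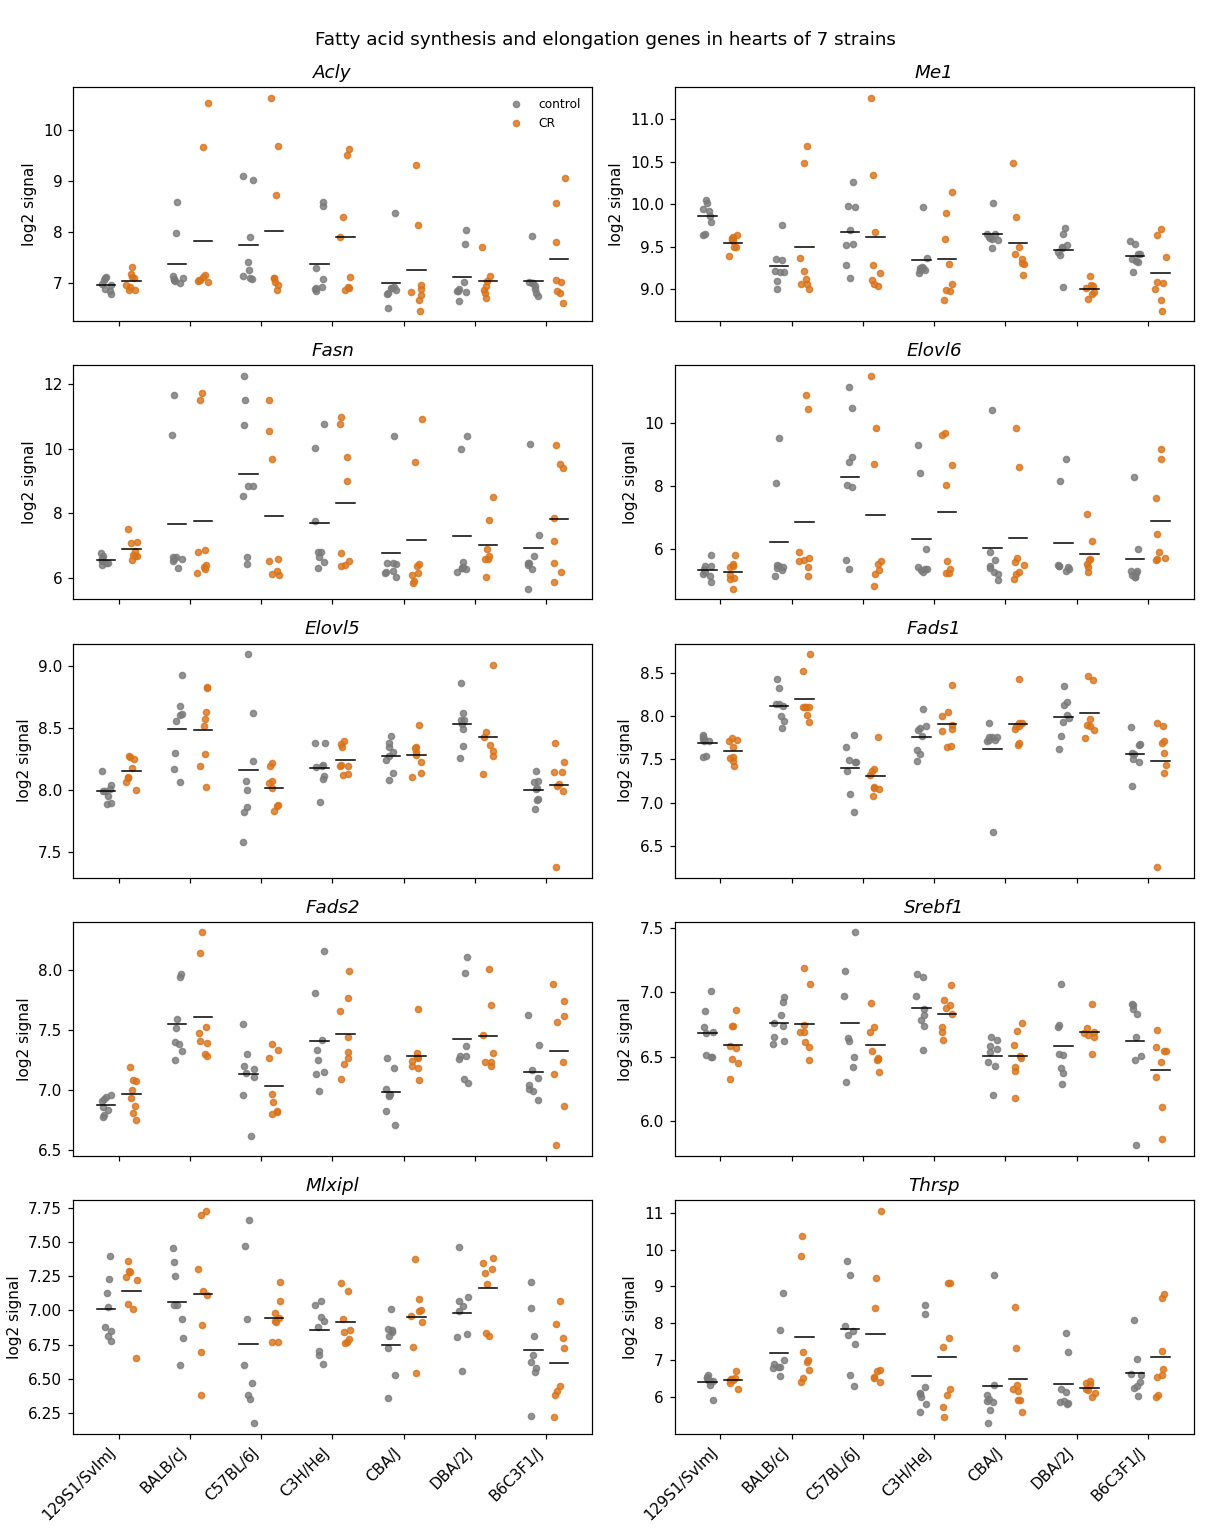
Log2 signal of each member (vertical axes) in every heart used, by strain (horizontal axis), with control hearts in grey, CR hearts in orange and bars at group means. In Acly, Fasn, Elovl6 and Thrsp a few hearts of most strains lie far above the rest in both diets, while 129S1/SvImJ shows none, and Me1 of 129S1/SvImJ is the only member and strain whose 2 diets do not overlap.

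Most hearts with high Fasn had high adipocyte markers. The white adipocyte marker mean, over Adipoq, Retn, Plin1, Lep, Cidec and Trarg1 (6 of 8 listed, as Cfd and Adrb3 were not matched under a single symbol), ran from 4.64 to 9.19 between hearts. The brown adipocyte mean, over Ucp1, Cidea, Otop1 and Slc27a2, ran from 4.86 to 10.7, and within groups the 2 means had a correlation of 0.967 over 111 hearts. They came apart in some hearts, such as DBA/2J CR replicates 3 and 6, with white means of 5.61 and 6.00 and brown means of 5.12 and 5.00. In 129S1/SvImJ the white adipocyte mean was 5.21 ± 0.179 in control and 5.14 ± 0.144 in CR hearts (SD, n = 8 each), and the C57BL/6J means were 7.27 ± 1.36 and 5.98 ± 1.53. None of the 7 strains had a difference between diets past the threshold, and the smallest adjusted p was 0.680, in C57BL/6J (2-sided exact permutation tests, unadjusted p = 0.0971, adjusted over 7 strains). Across strains limma called 0 of 6 white and 0 of 4 brown markers, which does not show that the hearts held equal amounts of these cells. In the same fit 4 of 5 endothelial markers were lower in CR, and 2 of 4 macrophage, 1 of 4 ventricular and 1 of 7 general cardiomyocyte markers were higher. The part of these cells in the members' differences was not tested. Single markers spanned far more than their group differences, with Adipoq from 3.19 to 10.05 and Ucp1 from 3.85 to 12.50. The mean of 5 atrial cardiomyocyte markers also varied, from 6.04 to 11.63, and its C57BL/6J values were 10.25 ± 1.60 for control and 7.76 ± 2.04 for CR hearts. Every heart with a white adipocyte mean above 6 also had an atrial mean of at least 8.60. The reverse did not hold, as B6C3F1/J CR replicate 1 had a white mean of 5.26 and an atrial mean of 10.50. What goes with the adipocyte markers below can thus not be fully told apart from what goes with atrial tissue.

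Within groups, all 10 members had a positive slope on the white adipocyte mean past the threshold, where 17.0% of all genes did (limma, adjusted over all genes). Per unit of the marker mean, Fasn was higher by 1.75 ± 0.050 (SE, 111 hearts), Elovl6 by 1.70 ± 0.0387, Thrsp by 1.02 ± 0.0415 and Acly by 0.80 ± 0.0357 on the log2 scale. The share of within-group variance left once the marker mean was taken into account was 4.97% for Elovl6, 7.68% for Fasn, 14.4% for Thrsp and 16.6% for Acly. Me1 (0.29 ± 0.0270) and Fads2 (0.23 ± 0.0207) followed with smaller slopes. Elovl5 (0.12), Srebf1 (0.11), Fads1 (0.11) and Mlxipl (0.08) had the smallest slopes of the 10, and 93.4% of the variance of Mlxipl was left. With the atrial cardiomyocyte mean as a further covariate, 6 of the 10 slopes passed the threshold. The share of all genes in that fit is not available here, so whether 6 of 10 is many cannot be told.

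**Figure D2:**
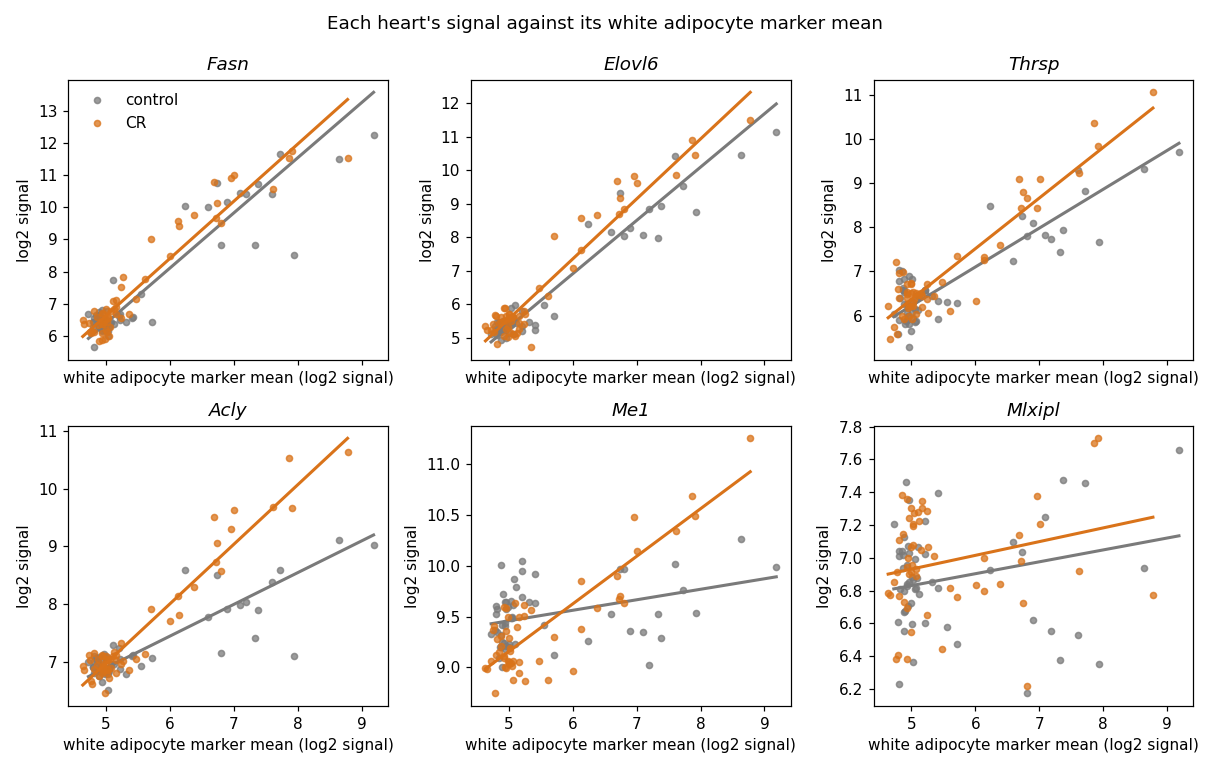
Log2 signal of 6 members (vertical axes) against the mean log2 signal of 6 white adipocyte markers (horizontal axes), 1 point per heart, with control hearts in grey and CR hearts in orange. Lines have the within-group slope fitted for each diet. Fasn, Elovl6 and Thrsp climb in both diets with slopes that did not differ past the threshold, the lines of Acly and Me1 separate (slopes of 1.03 and 0.47 in CR against 0.55 and 0.10 in control), and Mlxipl is nearly flat.

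Across the 7 strains none of the 10 members was called higher or lower in CR than in control hearts, where 7.69% of all genes were higher and 4.34% lower (limma, adjusted p under 0.05). None had an unadjusted p under 0.05 either, against 24.9% of all genes. The smallest adjusted p was that of Mlxipl, 0.226. The mean over strains was higher in CR for 8 of the 10, and the median difference of the members was 0.095 on the log2 scale against -0.0026 for all genes. The share of all genes with a higher mean in CR is not available here. Fasn, Elovl6, Acly and Thrsp varied together from heart to heart, so these values are a description and no result about the members as a set.

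Among the genes that supply substrate, Acly had 7.23 in control and 7.50 in CR hearts, a difference of 0.27 ± 0.155 (SE, adjusted p = 0.271), and Me1 had 9.52 and 9.39, a difference of -0.13 ± 0.0709 (adjusted p = 0.255). The difference for Fasn was 0.11 with a 95% confidence interval from -0.53 to 0.74, which reaches 1.67-fold upward. For Elovl6 it was 0.20 (interval -0.41 to 0.80). The enzymes of polyunsaturated fatty acids were measured far more closely. Elovl5 had a difference of 0.0037 (-0.082 to 0.089), Fads1 of 0.04 (-0.06 to 0.14) and Fads2 of 0.09 (-0.02 to 0.20). Of the regulators, Srebf1 had -0.06 (-0.15 to 0.03), Mlxipl 0.10 (-0.0050 to 0.21) and Thrsp 0.20 (-0.19 to 0.58). A strain by diet interaction passed the threshold for none of the members (smallest adjusted p = 0.552, Me1), where 0.712% of all genes passed. With the white adipocyte mean as a covariate it passed for Acly (adjusted p = 0.00516) and Me1 (0.0498), where 0.888% of all genes passed.

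Once hearts were compared at the same white adipocyte mean, 5 members were higher in CR and none was lower, where 8.97% of all genes were higher and 5.51% lower. Acly was higher by 0.35 ± 0.0639 (SE, adjusted p = 1.82e-05), with a positive estimate in 7 of 7 strains. Elovl6 was higher by 0.35 ± 0.0692 (adjusted p = 5.96e-05) and Thrsp by 0.29 ± 0.0743 (adjusted p = 0.00279), each with a positive estimate in 6 of 7 strains. Fasn differed by 0.27 ± 0.0895 (adjusted p = 0.0279) and Fads2 by 0.11 ± 0.0370 (adjusted p = 0.0339). The standard error of Elovl6 was 4.43 times smaller than without the marker mean and that of Fasn 3.58 times smaller, whereas that of Mlxipl barely moved (1.03 times). The calls of Fasn and Fads2 were lost with the atrial mean added (adjusted p = 0.0520 and 0.0608). Without C57BL/6J, the strain with the highest marker means, only Acly and Elovl6 were called higher, Me1 was called lower, and Thrsp had 0.14 (adjusted p = 0.252).

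**Figure D3:**
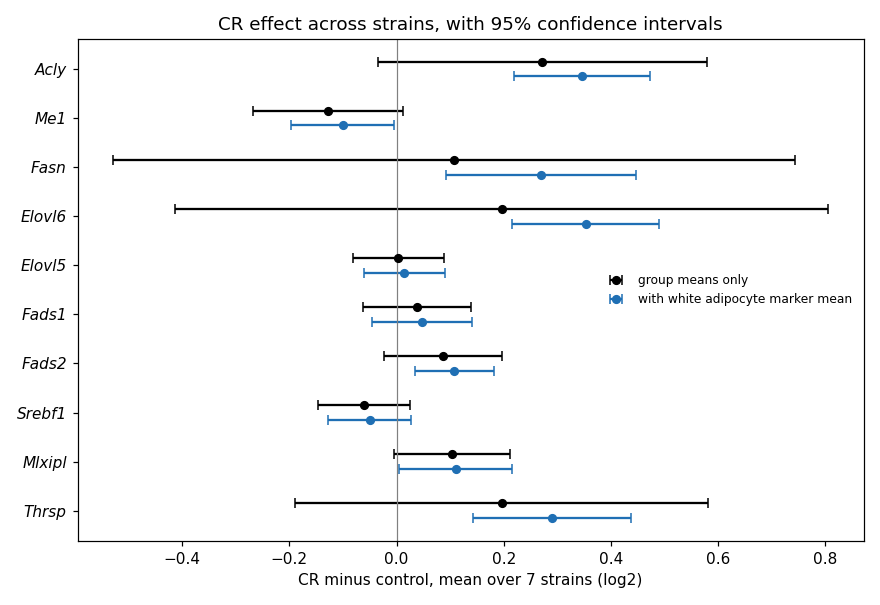
Difference between CR and control hearts as the mean over 7 strains (horizontal axis, log2) for each member (vertical axis), with 95% confidence intervals, from group means alone (black) and with the white adipocyte marker mean as a covariate (blue). The intervals of Fasn, Elovl6, Thrsp and Acly narrow the most and leave 0, while those of Elovl5, Fads1 and Srebf1 include 0 in both fits. With the covariate those of Fads2 and Mlxipl lie above 0 and that of Me1 below 0. Mlxipl and Me1 were not called (limma, adjusted p = 0.157 and 0.159).

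A single slope for both diets did not describe Acly and Me1. When the slope on the white adipocyte mean was fitted apart in the 2 diets, Acly had a slope of 0.55 ± 0.0389 among control and of 1.03 ± 0.0370 among CR hearts, a difference of 0.48 ± 0.0537 (SE, limma, adjusted p = 1.61e-10). For Me1 it was 0.10 ± 0.0294 and 0.47 ± 0.0280, a difference of 0.36 ± 0.0406 (adjusted p = 1.61e-10). They were the 2 members called, both steeper in CR, and only 18 of all genes were called in either direction (0.0903%), 11 of them steeper in CR (0.0552%). Acly and Me1 had the smallest adjusted p of the 18. The slopes of Fasn were 1.71 ± 0.0727 and 1.78 ± 0.0693 (adjusted p of the difference 0.928), those of Elovl6 1.59 ± 0.0545 and 1.79 ± 0.0519 (0.355) and those of Thrsp 0.88 ± 0.0574 and 1.15 ± 0.0547 (0.152). With all 112 arrays Acly alone was called (Me1, adjusted p = 0.190). With the brown adipocyte mean added, also with a slope per diet, neither was called (adjusted p = 0.395 and 0.706). This fit was chosen after the values had been seen.

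Of the 39 other pathway genes measured, 1 was steeper in CR and none in control hearts. It was Slc25a1, the mitochondrial citrate carrier that feeds Acly, with slopes of 0.97 in control and 1.25 in CR hearts (adjusted p = 1.56e-04). Outside the lists, and picked after their values were seen, Tkt, which encodes transketolase of the pentose phosphate pathway, had 0.86 and 1.11 (adjusted p = 0.0358), and Slc2a5, a fructose transporter, 0.11 and 0.43 (adjusted p = 1.85e-05). Retn, itself a marker in the mean, was steeper in CR too (0.92 and 1.26, adjusted p = 2.07e-05). With the mean of Plin1 and Cidec alone as the marker, which leaves Retn out, Acly, Me1, Elovl6 and Thrsp were called. The share of all genes in that fit is not available here.

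The size and, for Me1, the sign of the CR difference moved with the marker level. At the 25th percentile of the marker mean (4.93), the difference for Me1 was -0.33 ± 0.0446 on the log2 scale (adjusted p = 1.04e-08), the only member called there against 10.3% of all genes. Acly differed by 0.04 ± 0.0589 at that level. At the median (5.05), 2 members were called against 11.7% of all genes, Elovl6 at 0.25 ± 0.0777 and Me1 at -0.29 ± 0.0419. At the 90th percentile (7.19), Acly was higher in CR by 1.13 ± 0.0995 (adjusted p = 1.90e-15), Thrsp by 0.72 ± 0.147 (0.00106), Elovl6 by 0.68 ± 0.14 (0.00129) and Me1 by 0.49 ± 0.0753 (5.73e-06), 4 members against 2.74% of all genes. Fasn was not among them (0.37 ± 0.186, adjusted p = 0.349). Most groups had no heart at that level, and for them the value extends a slope per diet shared by all strains. The highest marker means were 5.41 and 5.35 in 129S1/SvImJ control and CR, and 6.00 in DBA/2J CR hearts. They were 6.90 and 6.81 in B6C3F1/J control and CR, 6.74 and 7.01 in C3H/HeJ control and CR, and 6.96 in CBA/J CR hearts. Among CR hearts only BALB/cJ replicates 1 (7.86) and 7 (7.91) and C57BL/6J replicates 2 (7.61) and 4 (8.78) reached that level. Leaving out each strain in turn kept all 4 calls at the high level in each of the 7 fits, with Acly between 1.07 and 1.17. It also kept the call of Me1 at the low level. These 7 fits extend the shared slopes in the same way, and none of them left out both BALB/cJ and C57BL/6J.

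Single hearts, pooled over strains, are given as a description. Above a marker mean of 6, a level chosen for description only, there were 14 control and 14 CR hearts, each from 6 strains. The strains were not balanced between the diets. C57BL/6J gave more of these control than CR hearts, and C3H/HeJ and B6C3F1/J gave more of the CR hearts. The pooled values therefore mix strain with diet. Acly had a lowest, median and highest value of 7.10, 8.01 and 9.10 in these control hearts and of 7.71, 9.18 and 10.63 in these CR hearts. In the other 42 control and 41 CR hearts its medians were 6.92 and 6.96. Me1 had medians of 9.53 and 9.87 above that level and of 9.48 and 9.12 below it, with control hearts below the level from 9.0 to 10.05 and CR hearts from 8.75 to 9.63. The C57BL/6J control heart with the highest marker mean of all (9.19) had 9.02 for Acly and 9.98 for Me1, whereas the C57BL/6J CR heart next to it (8.78) had 10.63 and 11.25. Fasn in the same hearts was 12.26 and 11.53.

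**Figure D4:**
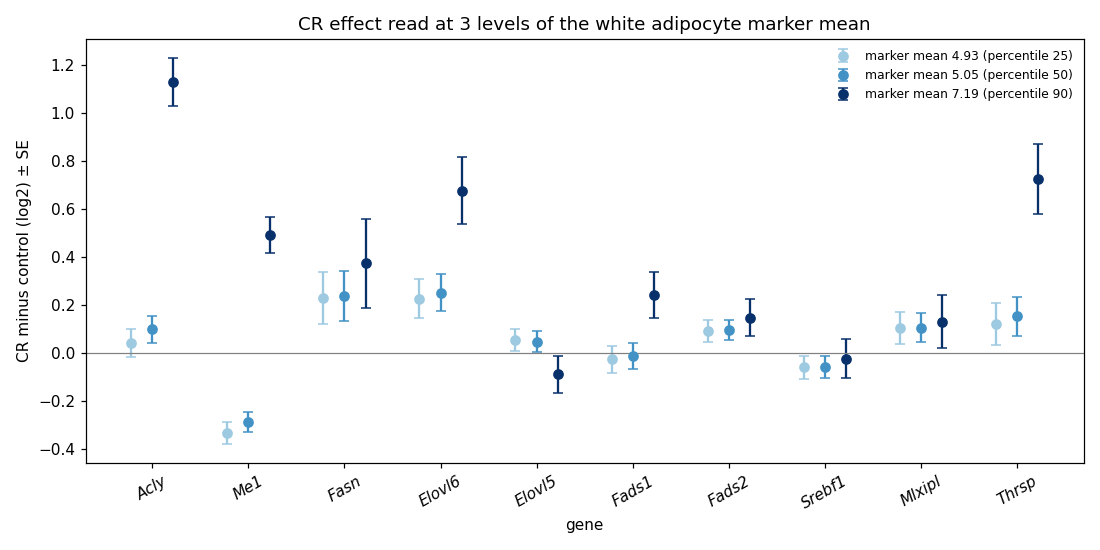
Difference between CR and control hearts (vertical axis, log2, mean over 7 strains, bars ± SE) for each member (horizontal axis), read at a white adipocyte marker mean of 4.93, 5.05 and 7.19 (light to dark blue). Acly goes from 0.04 to 1.13, Me1 crosses from -0.33 to 0.49, and Fads2, Srebf1 and Mlxipl keep nearly the same value at each level. Several groups had no heart at 7.19 and enter there by extension of the slope of their diet, shared by all strains.

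Within single strains, Me1 in 129S1/SvImJ was the only member called, 1 of 10 where 6.83% of all genes were called. Its control hearts ran from 9.64 through 9.89 to 10.05 and its CR hearts from 9.39 through 9.57 to 9.63, so the diets did not overlap, which was true of 1 of 70 pairs of member and strain (0.389% of all such pairs over all genes). The difference was -0.31 ± 0.0678 (SE, limma, adjusted p = 0.00664), 0.805-fold, in a strain whose hearts were all low in adipocyte markers. Other marker means of this strain differed between the diets without overlap. The mean of 5 endothelial markers ran from 8.56 to 8.94 in control and from 8.18 to 8.45 in CR hearts, and that of 4 ventricular markers from 10.34 to 10.54 and from 10.58 to 10.73. Their part in the difference of Me1 was not tested. In the fit of all 14 groups together the same difference was not called. In the other 6 strains none of the members was called, where 0.206% of all tests were. Me1 in DBA/2J had control hearts from 9.02 through 9.49 to 9.72 and CR hearts from 8.88 through 9.01 to 9.15, which overlap through the lowest control heart. That difference, -0.46 ± 0.0871, missed the threshold (adjusted p = 0.0869) and passed it with the marker mean as a covariate (-0.49 ± 0.0711, adjusted p = 0.0104, where 0.135% of all genes passed). In the fit of all 14 groups with that covariate it was not called (-0.40 ± 0.132, adjusted p = 0.286, where 0.181% of all genes were).

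The remaining strains show how the marker mean and the members went together. In C57BL/6J, CR minus control was -1.31 for Fasn (95% confidence interval -3.30 to 0.68), -1.23 for Elovl6 (-3.31 to 0.86) and -1.29 for the white adipocyte mean, none past the threshold. With the covariate in that strain alone, Thrsp was higher in CR by 1.12 ± 0.199 (adjusted p = 0.0249), while Acly (1.23 ± 0.256, adjusted p = 0.0625) and Elovl6 (0.82 ± 0.182, adjusted p = 0.0848) missed the threshold, where 0.135% of all genes were called. The fit of all 14 groups with the covariate, which shares 1 slope and 1 estimate of the spread between strains, called 4 members higher in C57BL/6J CR hearts, where 1.62% of all genes were called. These were Acly (1.30, adjusted p = 1.20e-07), Thrsp (1.17, adjusted p = 7.55e-05), Elovl6 (0.96, adjusted p = 6.64e-04) and Fasn (0.95, adjusted p = 0.0181). In B6C3F1/J, Elovl6 stood at 1.20 ± 0.561 (adjusted p = 0.223) and the CR mean of the markers was 0.46 above that of control hearts, with an atrial mean of 7.53 ± 2.15 in control and 9.02 ± 2.05 in CR hearts (SD, n = 8 each). In 129S1/SvImJ, Fasn had a difference of 0.35 ± 0.111 (adjusted p = 0.0634) and Acly of 0.08 ± 0.0740 (adjusted p = 0.617). In CBA/J, Fads2 differed by 0.30 ± 0.0969 (adjusted p = 0.576).

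**Figure D5:**
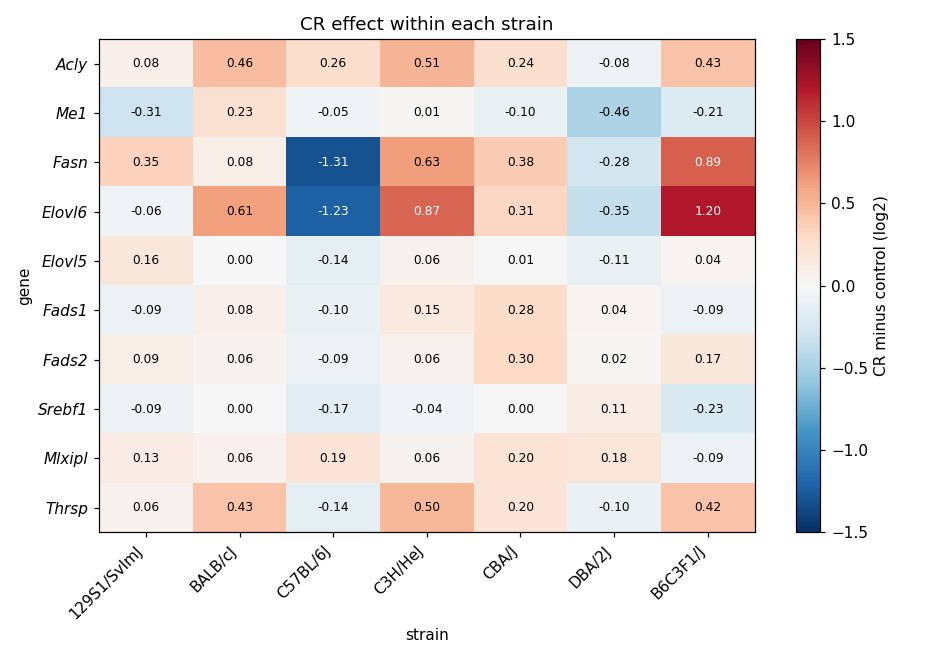
CR minus control (log2, colour scale and printed values) for each member (vertical axis) in each strain (horizontal axis). The largest values are those of Fasn and Elovl6 in C57BL/6J (-1.31 and -1.23) and of Elovl6 in B6C3F1/J (1.20), and only Me1 in 129S1/SvImJ (-0.31) passed the threshold.

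In control hearts, levels differed between strains for 6 of the 10 members, where 60.7% of all genes did, and with the marker mean as a covariate for all 10 (58.2% of all genes). Fads1, Fads2 and Elovl5 had the smallest adjusted p in the first fit. BALB/cJ was highest in Fads1 (8.12 ± 0.188, SD) and C57BL/6J lowest (7.40 ± 0.287, n = 8 each), a difference of 0.71 (limma, adjusted p = 7.77e-06, where 34.0% of all genes differed between these strains). Fads2 was highest in BALB/cJ too (7.54) and lowest in 129S1/SvImJ (6.87), 0.67 apart (adjusted p = 2.81e-04, against 13.6% of all genes). Elovl5 went from 7.99 in 129S1/SvImJ to 8.53 in DBA/2J (adjusted p = 1.77e-04, against 13.0% of all genes). Me1 was highest in 129S1/SvImJ (9.86) and lowest in BALB/cJ (9.27), 0.59 apart (adjusted p = 0.0203). In none of the members did neighbours in the order of the 7 strains differ (0 of 6 pairs each).

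Fasn and Elovl6 were highest in C57BL/6J control hearts, and their order against 129S1/SvImJ turned with the covariate. Fasn was 2.67 higher in C57BL/6J than in 129S1/SvImJ control hearts (adjusted p = 0.00776, where 36.6% of all genes differed). In the fit with the marker mean as a covariate, Fasn was 0.94 higher in 129S1/SvImJ (adjusted p = 0.00328). For Elovl6 the difference was 2.96 (adjusted p = 0.00188) and with the covariate 0.54 in the other direction (adjusted p = 0.0326). C57BL/6J control hearts were the group with the highest marker mean, so strain and marker level were partly confounded in this comparison.

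The genes most like each member, by the correlation of deviations from group means over 111 hearts, are given as a description, since all genes share the same hearts. Fasn was closest to Elovl6 (r = 0.971), to Acaca (0.970), the acetyl-CoA carboxylase, and to Scd1 (0.970), a stearoyl-CoA desaturase. Elovl6 was closest to Slc25a1 (0.980), Fasn and Ucp1 (0.969), the uncoupling protein of brown fat. Acly had Slc25a1 (0.963), Tkt (0.960) and Acaca (0.949), and Thrsp had Elovl6 (0.955), Slc25a1 and Tkt. Me1 was less tightly tied, to Acly (0.848) first. Fads1 was closest to Axl (0.880) and Fads2 to Aebp1 (0.892), and the closest genes of Srebf1 (Pde4d, 0.768) and Mlxipl (Abcc8, 0.793) had lower values still.

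Of 43 other genes of the pathway, 39 were measured, and across strains 5 were higher and 3 lower in CR, where 7.69% and 4.34% of all genes were. Hacd1, a dehydratase of the elongation cycle that is strong in muscle, was higher by 0.39 ± 0.0476 (SE, adjusted p = 2.84e-10), and Hsd17b12, the reductase of that cycle, by 0.31 ± 0.0968 (adjusted p = 0.0206). Insig2, which holds SREBP precursors in the endoplasmic reticulum, was higher by 0.18 ± 0.0357, Cbr4 of mitochondrial fatty acid synthesis by 0.18 ± 0.0486 and Mlx, the partner of ChREBP, by 0.10 ± 0.0283. Nr1h3, the liver X receptor alpha, was lower, at -0.20 ± 0.0354 (adjusted p = 1.24e-05), Srebf2, which encodes the SREBP of cholesterol synthesis, at -0.11 ± 0.0363, and the desaturase relative Fads3 at -0.11 ± 0.0383 (adjusted p = 0.04995). Usf2, Oxsm, Acss2 and Acacb had the next smallest p and were not called. The median difference of the 39 genes was 0.05. Mid1ip1, the paralog of Thrsp, was the only one of them with a strain by diet interaction past the threshold (adjusted p = 0.0104).

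At the same white adipocyte mean, 11 of the 39 were higher and 3 lower in CR, where 8.97% and 5.51% of all genes were. Of the genes that supply acetyl-CoA and malonyl-CoA 3 of 4 were higher, namely Acaca by 0.23 ± 0.0634, Slc25a1 by 0.21 ± 0.0493 and Acss2, an acetyl-CoA synthetase, by 0.18 ± 0.0517, whereas the remaining gene, Acacb, had -0.23 ± 0.0889 (adjusted p = 0.0651). Pgd of the pentose phosphate pathway, which makes NADPH, was higher by 0.20 ± 0.0461. No call was made among the 5 other elongases in either fit, and Elovl3, the elongase of brown fat and skin, had the steepest slope among them on the marker mean (1.40 ± 0.0556). These named genes of the second fit were picked after their values were seen.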

How the data were processed

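RNA of 112 mouse hearts was hybridised to Affymetrix Mouse Gene 1.0 ST arrays. The deposited values were log2 signals of probe sets that the authors had normalised by RMA-Sketch in Expression Console (version not given in the sources used here). Of 35556 probe sets, 21789 carried 1 symbol, 1621 several and 12146 none, and the brightest one stood for each gene (999 genes had several). Replicates are separate mice. Group means of 14 groups were fitted with limma 3.58.1 in R 4.3.3, over 19938 genes, with 2-sided tests and Benjamini-Hochberg adjustment over all genes at 0.05. The CR contrast was averaged over strains, and single strains were also fitted alone, as in the study's own analysis. Further fits added marker means as covariates, some with a slope per diet. The members, the lists and the tests were chosen with earlier results of these data known. All members are named, and other genes are named where called, among the 4 next smallest p, or among the 3 most like a member. Only the across-strain contrast without covariates was tested on simulated data, with independent normal spread. The other fits and contrasts were not. Replicate numbers, gene filter, scaling, weights, probe sets and left-out arrays were tried as alternatives.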

Additional observations from a re-analysis of the deposited data

Results flagged for a closer look

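In 21 of 140 combinations of member and group a single heart lay apart from the other hearts by Dixon's test. The nominal rate for independent normal values is about 1 in 20. The combinations share the same hearts, and the share over all genes is not available here. The count is therefore a description and no result about the members. All values are log2 signals. Replicate 1 of CBA/J control was the highest of its group in Acly (8.38), Me1 (10.01), Fasn (10.39), Elovl6 (10.43) and Thrsp (9.30) and the lowest in Fads1 (6.66). This heart had a white adipocyte mean of 7.60, and its array had the lowest correlation with its group among those used (0.894). Replicate 4 of B6C3F1/J control was the highest in Acly (7.92), Fasn (10.15) and Elovl6 (8.28), with a white adipocyte mean of 6.90. The part of the marker level in these values was not tested heart by heart.

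Other high hearts were DBA/2J CR replicate 6 in Acly (7.71) and Elovl5 (9.01), BALB/cJ control replicate 7 in Me1 (9.76), C3H/HeJ control replicate 4 in Me1 (9.96), C57BL/6J CR replicate 2 in Fads1 (7.76) and CBA/J CR replicate 2 in Fads1 (8.43) and Fads2 (7.67). Low hearts were DBA/2J control replicate 5 in Me1 (9.02), B6C3F1/J CR replicate 2 in Elovl5 (7.38) and Fads1 (6.26), B6C3F1/J control replicate 7 in Srebf1 (5.82) and 129S1/SvImJ control replicate 1 in Thrsp (5.92).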

How the results depend on the processing

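Across strains no member was called in either direction. As covariates, the white adipocyte mean, Plin1 with Cidec, the mean with its square, the brown mean, and white with brown each gave 5 members higher in CR, Adipoq gave 4, and white with atrial or a slope per strain gave 3. A slope per diet read at the median level gave 1 higher and 1 lower, and array weights gave 1 lower (Me1). The 5 higher members with the white adipocyte covariate became 3 with all 112 arrays, with the atrial mean or with a slope per strain, and 1 with a slope per diet. Leaving out a strain gave 2 to 5 higher (3 without 129S1/SvImJ or CBA/J, 2 without C57BL/6J) and 0 to 1 lower (1 without BALB/cJ or C57BL/6J). Without 6 arrays that stand apart 1 was lower, as with a slope per diet. For most settings in this section the share of all genes called is not available here. The counts describe the dependence on processing and are no result about the members.

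Values near 0 turned sign. Fasn ran from -0.023 (without B6C3F1/J) to 0.34 (without C57BL/6J). Elovl5 was -0.032 with all 112 arrays and -0.0085 with quantile normalisation repeated, and from -0.023 to 0.028 with strains or hearts left out. Fads1 was -0.018 with white and brown covariates and -0.013 with a slope per diet, and from -0.0022 to 0.063 with strains or hearts left out. With the covariate, Elovl5 was -0.022 with all 112 arrays and from -0.012 to 0.030 with strains or hearts left out. The slope difference of Fasn ran from -0.033 (without CBA/J) to 0.18 (without C57BL/6J CR replicate 4).

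The interaction, called for 0 members, was called for 2 with array weights, the white mean, Plin1 with Cidec, the square or the brown mean, for 1 with the atrial mean or Adipoq, and for 3 with a slope per strain or white with brown. Control levels differed for 6 members and for 10 with the covariate. Positive slopes fell from 10 to 6 with the atrial mean. Slope differences, 2 members, became 1 with all 112 arrays, 4 with Plin1 and Cidec and 0 with the brown mean added. Within 129S1/SvImJ the 1 call became 0 in the 14-group fit, with or without the covariate, and 2 by the methods' t-test at an unadjusted p under 0.01. That test called 1 in CBA/J and 1 in DBA/2J, and the covariate 1 in C57BL/6J and 1 in DBA/2J (4 and 0 in the 14-group fit with it, added after seeing the data). The cause of these changes was not tested. The tally over all settings mixes estimates with counts of members called. In 743 cases an estimate kept its direction and side of the threshold or a count stayed equal or close. In 79 an estimate newly passed or a count rose, in 34 an estimate no longer passed or a count fell, and in 15 an estimate turned sign.

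Of 55 pairs of hearts with the same strain and replicate number, 28 correlated above 0.1 (median 0.109, from -0.441 to 0.674). Pairs with different numbers were not compared, so whether replicate numbers pair the hearts cannot be told. With a replicate block, 0 members were called across strains, 5 with the covariate, 2 in slope difference, 9 in positive slope, 7 in control level, 0 in interaction and 1 within 129S1/SvImJ.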
